A study of Mus musculus with 8 samples.

Results

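The 10 genes described here carry out or control the display of peptides on major histocompatibility complex (MHC) class I molecules. They were chosen by name and found in the count matrix through their Ensembl identifiers, which gave 10 of the 52636 genes listed. All 10 were among the 14598 genes that had a count in every library and were tested. The libraries were made from polyadenylated RNA of mesenchymal stem/progenitor cells (MSPCs), the perivascular stromal cells of bone marrow that feed hematopoietic stem cells. The cells were sorted as CD45- Ter119- CD31- CD144- PDGFRα+ SCF-GFP+ from C57BL/6 mice labelled as 6 weeks old, and the methods describe a double sort. For the mice of the whole study the methods give an older age range, which differs from this label. The control group (CTR, named CTL in the sample titles) was Flk2-cre+ Cxcr4fl/+ and the conditional knockout group (cKO) was Flk2-cre+ Cxcr4fl/fl, with 4 mice each and 1 library per mouse. All 8 mice therefore carried the Flk2-cre transgene, which sits on the Y chromosome, and, since the cells were sorted for GFP from the Kitl locus, a Kitl GFP allele. Flk2-cre acts from multipotent hematopoietic progenitors on, and the paper describes loss of CXCR4 in these and in the progenitors and differentiated cells downstream. CTR mice kept an unfloxed Cxcr4 allele in all of these cells. The comparison therefore asks how stroma with a retained Cxcr4 gene differs when hematopoietic cells from this stage on lack CXCR4.

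MHC class I molecules show fragments of a cell's own proteins to CD8+ T cells and natural killer cells. Proteasomes cut the proteins, the TAP transporter moves the peptides into the endoplasmic reticulum, tapasin helps to fit them into the groove of a heavy chain, and B2m completes the complex before it leaves for the cell surface. Nearly all nucleated cells carry the pathway, and interferon gamma raises it through IRF1 and the class I transactivator NLRC5. Interferon also exchanges the catalytic subunits of the proteasome for the inducible forms that make up the immunoproteasome. The C57BL/6 strain has the H-2b haplotype, in which H2-K1 and H2-D1 encode the classical heavy chains.

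The libraries held between 31047344 and 38216877 counts. The MSPC markers were abundant in every library, with Cxcl12 between 39742 and 50718 CPM (read counts scaled to the same total in every library) and Lepr between 3586 and 5039 CPM in the cKO group. The pan-hematopoietic marker Ptprc was at most 0.980 CPM in any library. Together, 46 markers of endothelial and hematopoietic cells summed to between 120.1 and 340.1 CPM in the CTR group and between 232 and 359 CPM in the cKO group, and 7 of them were at 0 in all libraries. The defining T and NK cell markers Cd3e, Cd3g, Cd8a, Gzma and Klrb1c and the endothelial marker Tek were among those 7. The library of CTR mouse 3 carried plasma cell transcripts, so that its B and plasma cell markers summed to 131 CPM.

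Of the 10 genes, 7 lie in the MHC region of chromosome 17 in GRCm38 (the coordinates are those of GENCODE genes). Tapbp (ENSMUSG00000024308.14) spans chr17:33915899-33929292 and H2-K1 (ENSMUSG00000061232.15) spans chr17:33996017-34000347 on the minus strand. Psmb9 (ENSMUSG00000096727.2, chr17:34181987-34187764, minus strand), Tap1 (ENSMUSG00000037321.17, chr17:34187553-34197225), Psmb8 (ENSMUSG00000024338.14, chr17:34197721-34201454) and Tap2 (ENSMUSG00000024339.12, chr17:34203527-34216321) lie next to each other, and H2-D1 (ENSMUSG00000073411.11) spans chr17:35262730-35267499. The exons of Tap1 and Psmb9, which are transcribed in opposite directions, share 212 bases. B2m (ENSMUSG00000060802.8) lies at chr2:122147686-122153083. Nlrc5 (ENSMUSG00000074151.13, chr8:94434356-94527272) and Psmb10 (ENSMUSG00000031897.9, chr8:105935735-105938444, minus strand) lie on chromosome 8.

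Promoter windows were available for 8 of the 10 genes from RefSeq (GRCm38.p6), and the 250 bases before each RefSeq start were searched on both strands. These starts can differ from the ends of the GENCODE genes given above. The windows of H2-D1, Tapbp, Psmb8 and Psmb9 lie inside the spans of those genes. The windows of the heavy chains, of B2m and of Tap1, the member that differed most between the genotypes relative to its spread, are printed so that the elements of the class I molecule itself can be set beside those of Tap1. Capitals mark matches to the letters of the interferon regulatory factor (IRF) element AANNGAAA, the X2 box core TGACG, the Y box core CCAAT or the kappa B element GGGANNNNCC, and overlapping kappa B matches on the 2 strands are joined. The X2 and Y boxes belong to the module through which the NLRC5 complex acts. RefSeq gave 2 windows for H2-K1, of which the first is shown. The coordinates are chr17:34000348-34000597 (minus strand) for H2-K1, chr17:35262844-35263093 (plus strand) for H2-D1, chr2:122147437-122147686 (plus strand) for B2m and chr17:34187306-34187555 (plus strand) for Tap1.
H2-K1: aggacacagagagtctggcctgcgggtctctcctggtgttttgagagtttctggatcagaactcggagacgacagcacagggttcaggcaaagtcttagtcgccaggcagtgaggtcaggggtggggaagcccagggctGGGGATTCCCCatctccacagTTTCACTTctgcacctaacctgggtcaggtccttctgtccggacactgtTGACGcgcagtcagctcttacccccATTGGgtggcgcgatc
H2-D1: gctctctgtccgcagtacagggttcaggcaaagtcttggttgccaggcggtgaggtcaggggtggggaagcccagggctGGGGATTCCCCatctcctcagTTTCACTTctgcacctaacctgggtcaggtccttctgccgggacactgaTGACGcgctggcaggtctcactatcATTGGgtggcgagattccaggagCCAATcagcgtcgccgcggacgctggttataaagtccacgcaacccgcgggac
B2m: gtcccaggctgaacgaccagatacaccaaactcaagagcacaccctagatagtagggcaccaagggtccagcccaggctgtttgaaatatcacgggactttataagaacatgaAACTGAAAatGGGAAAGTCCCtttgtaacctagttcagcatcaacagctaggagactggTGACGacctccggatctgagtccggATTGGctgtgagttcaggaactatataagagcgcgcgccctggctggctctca
Tap1: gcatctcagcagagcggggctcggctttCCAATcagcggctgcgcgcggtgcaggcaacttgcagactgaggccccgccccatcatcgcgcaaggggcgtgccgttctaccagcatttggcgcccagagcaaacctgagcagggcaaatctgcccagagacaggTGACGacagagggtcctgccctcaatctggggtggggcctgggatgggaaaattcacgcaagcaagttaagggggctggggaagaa

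H2-K1, H2-D1 and B2m each held an IRF element, a kappa B match, an X2 core and a Y core read as ATTGG. The kappa B match lay farthest from the start in H2-K1 and H2-D1, and in B2m the IRF element did. In each of these 3 windows the first base of ATTGG lay 25 bases after the first base of TGACG. The pair at 24 or 25 bases was found in 25 of 32851 windows (0.0761%), which belonged to 21 genes, and H2-M3 and H2-Q7 were among them. This spacing was looked for after the windows had been seen. Tap1 held an X2 core 86 bases and a Y core 222 bases before its start, in an order different from that of the heavy chains. The windows of Tap1 and Psmb9 overlap by 225 bases and hold the same X2 core and Y core matches where they overlap. Psmb8 was the only one of the 8 windows with a gamma-activated (GAS) element of the letters TTCNNNGAA, which 7.02% of all windows held. Over all windows, 21.31% held an IRF element, 17.77% an X2 core, 33.85% a Y core and 17.63% a kappa B match, against 3, 5, 6 and 3 of the 8 windows here. The matches describe letters in the sequence and do not show binding.

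MSPCs expressed the whole pathway, at levels that spanned 3 orders of magnitude per length. Levels are given as CPM after trimmed mean of M values (TMM) scaling, divided by the merged exon length in kb, as mean ± SD over the 8 libraries. B2m, the light chain, was highest at 6354 ± 657 CPM per kb. The heavy chain H2-D1 followed at 3870 ± 302 CPM per kb and the heavy chain H2-K1 at 1300.2 ± 163 CPM per kb. Tapbp, which encodes tapasin, was at 248 ± 18.1 CPM per kb. These first 4 places did not overlap in any library. Tap2 at 67.5 ± 5.44, Psmb8 at 61.2 ± 5.96 and Psmb10 at 57.1 ± 5.85 CPM per kb had overlapping ranges. Tap1 at 20.7 ± 4.04 and Psmb9 at 18.3 ± 1.19 CPM per kb also overlapped, and Nlrc5 was lowest at 6.28 ± 1.79 CPM per kb in every library. Tap1 and Tap2 encode partners of a heterodimer, and Tap2 was above Tap1 in all 8 libraries. Lengths of the longest coding transcript put Psmb8 and Psmb10 ahead of Tap2 and Psmb9 ahead of Tap1.

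**Figure D1:**
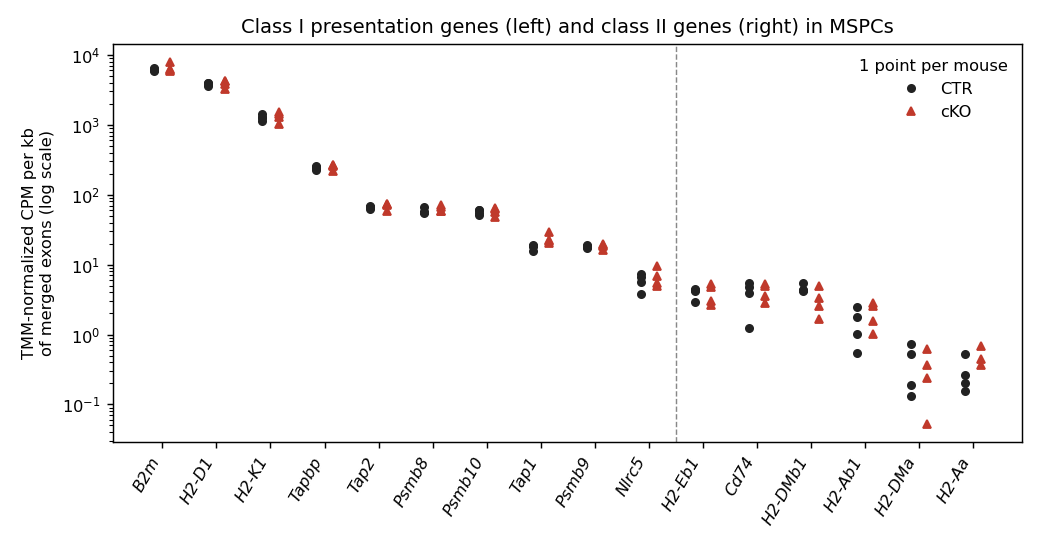
Level of each class I gene (left of the dashed line) and of 6 class II genes (right) in TMM-normalized CPM per kb of merged exons on a log axis, 1 point per mouse, circles for CTR and triangles for cKO. The class I genes span from 6.28 (Nlrc5) to 6354 (B2m) CPM per kb on average, and H2-Aa is at 0 in the library of cKO mouse 4, which a log axis cannot show.

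In TMM-normalized CPM, where library totals are taken over the tested genes, the 10 genes together took 2.06% in the CTR group and 2.13% in the cKO group. Their sum was 20640.5 ± 779 CPM (SD, n = 4) in the CTR group and ranged from 18012 to 23958 CPM in the cKO group, so that the groups overlapped. Class II genes, which mark professional antigen-presenting cells, were far lower. Of 10 class II pathway genes 5 had a count in every library, and their 10 levels summed to between 20.4 and 36.1 CPM in the CTR group and between 21.9 and 34.96 CPM in the cKO group. Ciita, the class II transactivator, reached at most 0.684 CPM, and H2-Oa was at 0 throughout. A count of 0 allows up to 3 counts, which corresponded to between 0.0785 and 0.0966 CPM in these libraries and covers counting error only.

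Class I genes did not differ detectably between the genotypes. None of the 10 passed an adjusted p of 0.05 in edgeR's quasi-likelihood test (adjusted over the 14598 genes with the method of Benjamini and Hochberg), where the background was 0% of all genes and the smallest adjusted p was 0.894. At an unadjusted p under 0.05 edgeR called 646 genes (4.43%), 1 of them a member, Tap1. The DESeq2 Wald test gave 23 genes at an adjusted p under 0.05, 0 of them members. All 10 members had a log2 fold change above 0, as had 49.8% of all genes, with a median of 0.06 against 0.00 over all genes. The members' median was 0.01 without cKO mouse 4, 0.02 without CTR mouse 1, 0.03 without cKO mouse 2 and 0.13 without cKO mouse 1. The 10 values came from the same 8 mice and are not independent of each other. Of the 95% intervals, 9 of 10 held 0 and 8 of 10 lay within a log2 value of 0.5 on both sides. In bulk samples, fewer cells of a type and less RNA per cell cannot be told apart.

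H2-K1, a classical heavy chain, was at 3382, 4143, 3717 and 3737 CPM in CTR mice 1 to 4 and at 3018, 4215, 3823 and 4523 CPM in cKO mice 1 to 4. The cKO group held both the lowest and the highest library, and the groups overlapped. On the log2 scale H2-K1 differed by 0.06, cKO minus CTR (SE 0.14, 95% interval from -0.25 to 0.36, unadjusted p = 0.688, adjusted p = 0.999 in edgeR). H2-D1, the other classical heavy chain, was at 9269, 10140.4, 10009.9 and 10315 CPM in the CTR mice and at 8482, 10786, 10019 and 10822 CPM in the cKO mice. Again cKO mouse 1 was lowest and cKO mouse 4 highest. On the log2 scale H2-D1 differed by 0.01 (95% interval from -0.25 to 0.27, unadjusted p = 0.910, adjusted p = 0.999 in edgeR). Per kb of merged exons, H2-D1 exceeded H2-K1 by 3.02-fold in the CTR group, with 2.79 to 3.14 in single libraries. In the cKO group it did so by 2.93-fold, with 2.73 to 3.201. The size of this ratio depends on the length used. Merged exons span 2938 bases for H2-K1 and 2579 for H2-D1. The longest coding transcripts span 1619 and 2102 bases, which makes the ratio smaller. These genes and the H2-Q genes are similar copies, and how reads that fit several of them were counted is not given in the sources used here, so that their separate levels are uncertain.

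B2m, the light chain shared by all class I molecules, was at 5431, 5566, 5103 and 5173 CPM in the CTR mice. It was at 4999, 5284, 5369 and 6787 CPM in the cKO mice. Only cKO mouse 4 lay above the CTR range and cKO mouse 1 lay just below it. The log2 fold change was 0.08 (95% interval from -0.19 to 0.34, unadjusted p = 0.533, adjusted p = 0.999 in edgeR), and it was -0.03 without cKO mouse 4.

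Heavy chains pair with B2m, so their balance was compared within each library. Summed H2-K1 and H2-D1 CPM per kb divided by B2m CPM per kb gave 0.830 ± 0.0570 (SD, n = 4) in the CTR group. In the cKO group it gave 0.804 ± 0.0868 (SD, n = 4). The groups overlapped, and the mean log2 ratio differed by -0.05 (cKO minus CTR, exact permutation test, two-sided, p = 0.629). The level of this ratio depended on the length used, since the longest coding transcripts gave 1.01 to 1.26 over the 8 libraries, where merged exons gave 0.727 to 0.914.

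Tap1, a subunit of the peptide transporter, was the member with the largest difference. Its levels were 100.3, 100.8, 84.7 and 106 CPM in the CTR mice and 112, 159, 122 and 120.4 CPM in the cKO mice. Every cKO library was above every CTR library, which held for 1.34% of all genes (1.29% had every cKO library below every CTR library), and CTR mouse 3 was the lowest and cKO mouse 2 the highest. The mean was 97.9 ± 9.18 CPM (SD, n = 4) in the CTR group and 128 ± 20.9 CPM (SD, n = 4) in the cKO group. The log2 fold change of Tap1 was 0.39 (SE 0.13, 95% interval from 0.11 to 0.68, a 1.08-fold to 1.60-fold difference, unadjusted p = 0.0122) and it did not pass the correction (adjusted p = 0.999 in edgeR). It was 0.27 without cKO mouse 2 and 0.32 without CTR mouse 3. Psmb9, which shares exon bases and most of its promoter window with Tap1, did not follow it. Over 8 alternatives that each left out 1 library, the log2 fold change of Tap1 stayed between 0.27 and 0.45.

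Tap2, the partner of Tap1, was at 252, 252, 259.6 and 236 CPM in the CTR mice. In the cKO mice it was at 218, 272, 276 and 275 CPM. Mouse 1 of the cKO group was lowest of all 8, and the other cKO mice were above every CTR mouse. The difference was 0.06 on the log2 scale (95% interval from -0.17 to 0.28, unadjusted p = 0.575, adjusted p = 0.999 in edgeR). Of its exon bases, 14.1% overlap the gene Gm15821 on the other strand.

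Tapbp, which bridges the transporter and the heavy chain, was also lowest in cKO mouse 1. It was at 829, 900.5, 940.0 and 869.9 CPM in the CTR mice and at 787, 963, 935 and 967 CPM in the cKO mice. The groups overlapped, and the log2 fold change was 0.05 (95% interval from -0.17 to 0.26, unadjusted p = 0.656, adjusted p = 0.999 in edgeR). Of its exon bases, 24.9% overlap Gm19412 on the other strand.

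Psmb8, Psmb9 and Psmb10 encode the inducible catalytic subunits of the immunoproteasome. Psmb8 was at 193, 192, 225 and 185 CPM in the CTR mice and at 200.2, 195, 225 and 240.4 CPM in the cKO mice. Psmb9 was at 68.6, 65.8, 69.6 and 62.4 CPM in the CTR mice and at 59.4, 73.1, 69.2 and 66.7 CPM in the cKO mice. Psmb10 was at 86.5, 102.5, 102.9 and 91.9 CPM in the CTR mice and at 95.8, 82.5, 106 and 111 CPM in the cKO mice. For all 3 genes the groups overlapped, and for Psmb9 and Psmb10 the cKO group held both the lowest and the highest library. The log2 fold changes were 0.11 for Psmb8 (95% interval from -0.12 to 0.35), 0.01 for Psmb9 (from -0.21 to 0.23) and 0.04 for Psmb10 (from -0.22 to 0.30). The unadjusted p-values were 0.302, 0.915 and 0.715 in edgeR, each with an adjusted p of 0.999.

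Each inducible subunit takes the place of a constitutive subunit, Psmb8 that of Psmb5, Psmb9 that of Psmb6 and Psmb10 that of Psmb7. Psmb8 over Psmb5 was 0.499 ± 0.0202 (SD, n = 4) in the CTR group and 0.540 ± 0.0631 (SD, n = 4) in the cKO group, in CPM per kb of merged exons. Psmb9 over Psmb6 was 0.243 ± 0.0173 in the CTR group and 0.247 ± 0.0379 in the cKO group. Psmb10 over Psmb7 was 2.91 ± 0.5004 in the CTR group and 2.87 ± 0.354 in the cKO group. The mean log2 ratios differed by 0.11, 0.02 and -0.01 (cKO minus CTR), with exact permutation p-values of 0.314, 0.943 and 0.943 (two-sided, 70 assignments, smallest possible p = 0.0286). The difference for Psmb8 over Psmb5 was 0.06 without cKO mouse 4 and 0.17 without cKO mouse 1. All 3 Benjamini-Hochberg adjusted values over the 3 exact tests were 0.943, and in each ratio the groups overlapped. The size of these ratios depended on the length, since the longest coding transcripts gave 0.979 to 1.25 for Psmb8 over Psmb5 and 1.04 to 1.56 for Psmb10 over Psmb7 across the 8 libraries.

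**Figure D2:**
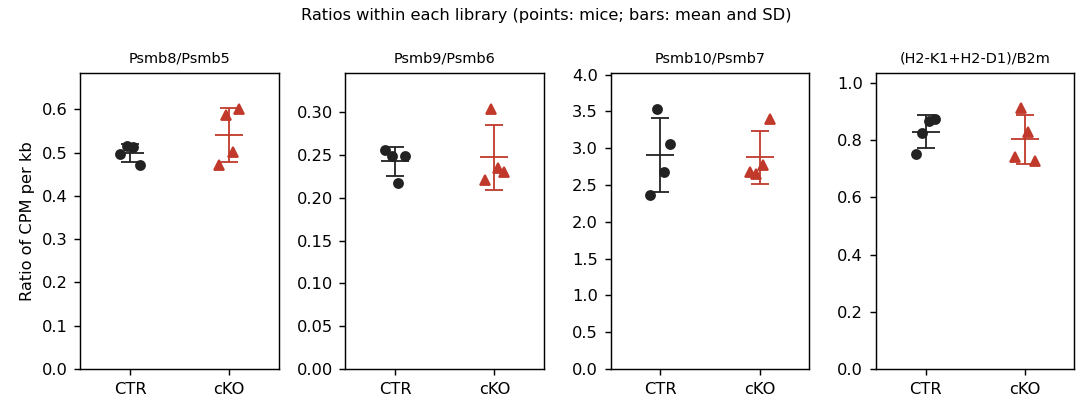
Ratios of inducible to constitutive catalytic proteasome subunits and of summed heavy chains to B2m within each library, in CPM per kb of merged exons, with 1 point per mouse and bars for the mean and SD of 4 mice. CTR and cKO points overlap in all 4 panels, with mean ratios of 0.499 and 0.540 in the first.

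Nlrc5, the transactivator of the class I genes, varied more than any other member. It was at 32.0, 62.9, 47.6 and 57.2 CPM in the CTR mice. In the cKO mice it was at 41.6, 81.8, 57.7 and 46.1 CPM. The lowest library belonged to the CTR group and the highest to the cKO group, and the other 6 overlapped. Its log2 fold change was 0.19 (95% interval from -0.37 to 0.74, unadjusted p = 0.472, adjusted p = 0.999 in edgeR), and it was -0.04 without cKO mouse 2. The pooled within-group SD of log2 CPM was 0.431 for Nlrc5 and 0.103 for Psmb9, the least variable member. The median over the 10 members was 0.139, compared with 0.228 over the 9406 genes tested with a mean of at least 10 CPM.

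**Figure D3:**
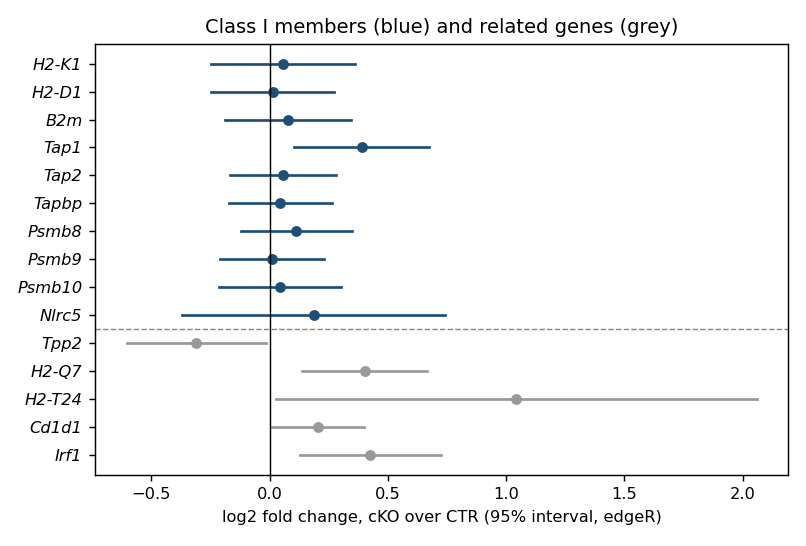
log2 fold change of cKO over CTR from edgeR with its 95% interval, for the 10 class I members (blue) and for 5 related genes at an unadjusted p under 0.05 (grey), which were drawn because of that p. The intervals of 9 members cross 0, and that of Tap1 runs from 0.11 to 0.68.

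The members tended to be low or high together in single mice. In CTR mouse 1 all members except Psmb9 were below their mean over the libraries on the log2 scale. In cKO mouse 1 all members except Tap1 were. The library of cKO mouse 1 had the lowest level of 6 members, H2-K1, H2-D1, B2m, Tap2, Tapbp and Psmb9. That of cKO mouse 4 had the highest level of 6 members, H2-K1, H2-D1, B2m, Tapbp, Psmb8 and Psmb10. That of cKO mouse 2 had the highest level of Tap1, Psmb9 and Nlrc5, and the lowest of Psmb10. No CTR library was the highest for any member. Centred log2 CPM averaged over the 10 members was -0.16 in cKO mouse 1 and 0.14 in cKO mouse 2, and in the CTR group it ranged from -0.15 in mouse 1 to 0.03 in mouse 2.

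**Figure D4:**
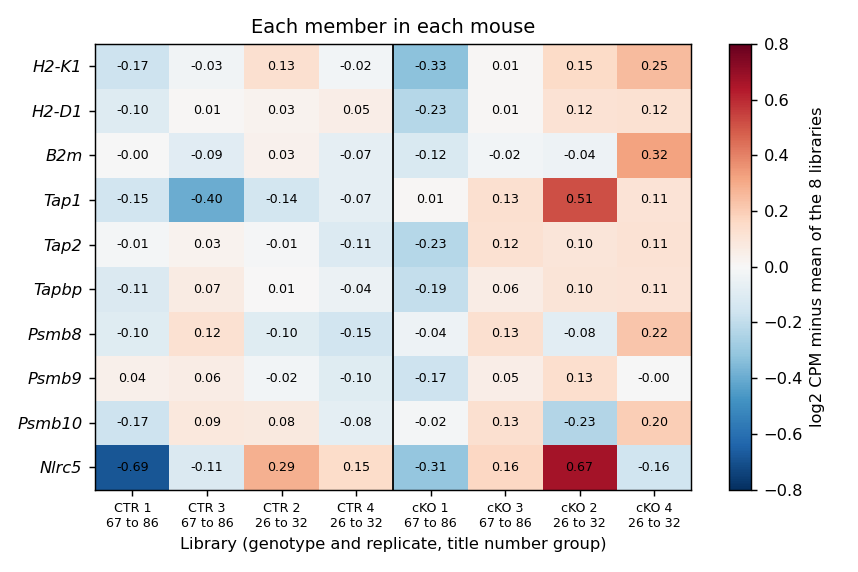
log2 CPM of each member in each mouse, minus the mean of the 8 libraries, with the replicate number and the range of the sample title number under each column. The column of cKO mouse 1 is negative for all members except Tap1, and that of CTR mouse 1 for all except Psmb9. The values run from -0.69 (Nlrc5, CTR mouse 1) to 0.67 (Nlrc5, cKO mouse 2).

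The sample titles carry numbers that fall into a range of 26 to 32 and a range of 67 to 86, with 2 mice of each genotype in each. What the numbers stand for is not given in the sources used here. With both terms in the edgeR model, 8 of 10 members were higher in the 26 to 32 range, as were 51% of all genes. H2-K1 was higher by 0.25 on the log2 scale (unadjusted p = 0.0401, adjusted p = 0.409) and Nlrc5 by 0.48 (unadjusted p = 0.0478, adjusted p = 0.425), where 11.6% of all genes had an unadjusted p under 0.05 and 0.0137% an adjusted p under 0.05. Mean H2-K1 was 4155 CPM in the 26 to 32 range and 3485 CPM in the 67 to 86 range, and mean Nlrc5 was 62.0 and 44.7 CPM. Within the 26 to 32 range the genotype difference of Tap1 was 0.42 on the log2 scale, and within the 67 to 86 range it was 0.34. For H2-K1 the same values were 0.15 and -0.06, for H2-D1 0.08 and -0.06, for B2m 0.16 and -0.02, for Tap2 0.17 and -0.06, for Tapbp 0.12 and -0.04, for Psmb8 0.20 and 0.03 and for Psmb9 0.12 and -0.11. Psmb10 at -0.02 and 0.10 and Nlrc5 at 0.03 and 0.33 had the larger value in the 67 to 86 range. Whether the genotype differences themselves differed between the ranges was not tested.

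The partners of the pathway were listed to see whether they moved where the members did not. The peptide loading and trimming partners, which include the chaperones Calr, Canx and Pdia3 and the peptidase Erap1, had 8 of 8 genes tested, 6 higher and 2 lower, with a median log2 fold change of 0.02. None passed an adjusted p of 0.05, and 1 was lower at an unadjusted p under 0.05 (background 2.08% in that direction). It was Tpp2, a cytosolic peptidase, with 63.1, 78.1, 75.9 and 85.4 CPM in the CTR mice and 65.7, 69.1, 50.0 and 59.3 CPM in the cKO mice. These groups overlapped, and the log2 fold change was -0.31 (SE 0.13, unadjusted p = 0.0415, adjusted p = 0.999 in edgeR). The unadjusted p of Tpp2 was between 0.0650 and 0.115 without CTR mouse 2, 3 or 4 or cKO mouse 3 or 4, and 0.0532 with the replicate number as a block. Lnpep, an aminopeptidase of endosomes, had the next largest value of that list at 0.14.

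The constitutive catalytic subunits Psmb5, Psmb6 and Psmb7 had log2 fold changes between -0.01 (Psmb6) and 0.04 (Psmb7), and none had an unadjusted p under 0.05. The proteasome activator and assembly genes had 3 of 4 log2 fold changes below 0. The largest were those of Psme3 at -0.13 and Psme1 at -0.06, which encode activator subunits, with none at an unadjusted p under 0.05.

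Class I-like genes had more positive than negative values. Of 13 non-classical and class I-like genes, 11 were higher and 2 lower, where 49.8% of all genes were higher. These genes present to specialised lymphocytes or carry other ligands, and their median log2 fold change was 0.15. Their values came from the same mice and are not independent of each other. None passed an adjusted p of 0.05, and 3 were higher at an unadjusted p under 0.05, H2-Q7, H2-T24 and Cd1d1 (background 2.35% in that direction). Of these 3, H2-Q7 alone kept an unadjusted p under 0.05 without CTR mouse 1, 2 or 3 or without cKO mouse 3. H2-Q7, a non-classical heavy chain, was at 186, 229, 189 and 196 CPM in the CTR mice and at 214, 279, 281 and 284 CPM in the cKO mice. Only cKO mouse 1 fell within the CTR range, and the log2 fold change was 0.40 (SE 0.12, unadjusted p = 0.00668, adjusted p = 0.999 in edgeR). How reads shared among the H2-Q copies were counted is not given, so that the separate level of H2-Q7 is uncertain. Cd1d1, which presents lipids to natural killer T cells, was at 319, 329.8, 306 and 345 CPM in the CTR mice and at 359, 411, 368 and 360.3 CPM in the cKO mice. All cKO libraries of Cd1d1 were above all CTR libraries, which held for 1.34% of all genes. Its log2 fold change was 0.21 (SE 0.09, unadjusted p = 0.0405, adjusted p = 0.999 in edgeR). H2-T24 was at most 1.60 CPM in the CTR group and between 1.51 and 4.89 CPM in the cKO group, where mouse 3 stood above the rest. Its log2 fold change was 1.04 (unadjusted p = 0.0453, adjusted p = 0.999 in edgeR) and 0.49 without cKO mouse 3, and its unadjusted p was 0.0682 with filterByExpr, 0.0699 with limma-voom and 0.0834 with the replicate block.

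Among the listed factors that act on class I promoters, 0 passed an adjusted p of 0.05 in edgeR. Irf1, which binds IRF elements of class I genes, was at 209.9, 140.2, 179 and 172 CPM in the CTR mice. In the cKO mice it was at 198, 243, 247 and 254 CPM. Mouse 1 of the cKO group was within the CTR range and the other 3 were above it. For Irf1 the log2 fold change was 0.43 (SE 0.13, unadjusted p = 0.00972, adjusted p = 0.999 in edgeR).

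**Figure D5:**
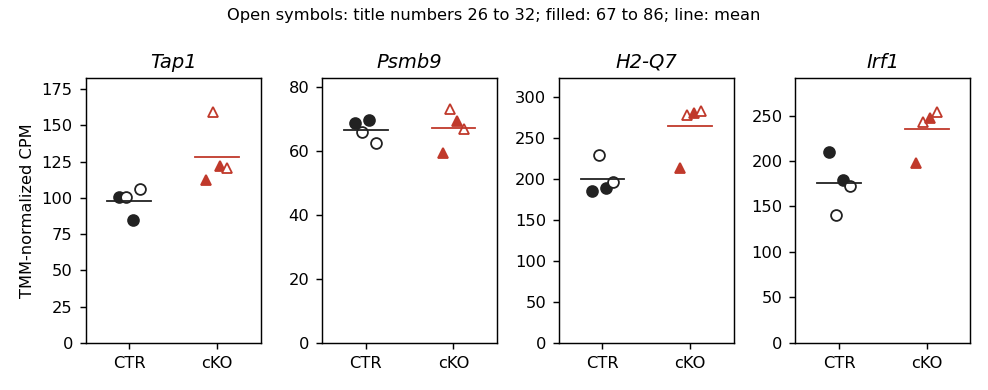
TMM-normalized CPM of Tap1, Psmb9, H2-Q7 and Irf1 in each mouse, circles for CTR and triangles for cKO, open for title numbers 26 to 32 and filled for 67 to 86, with a line at the mean. The genotypes do not overlap for Tap1 and overlap in the other 3 panels.

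The receptor side of interferon gamma was expressed and close to level. The receptor chains Ifngr1 and Ifngr2, the kinases Jak1 and Jak2 and the inhibitor Socs1 had log2 fold changes between -0.10 (Jak1) and 0.04 (Socs1). None of these 5 genes had an unadjusted p under 0.05. The interferon ligands Ifng, Ifnb1, Ifna4, Ifnl2 and Ifnl3 had no count in any of the 8 libraries.

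Class II genes gave no call. The largest log2 fold changes of the class II list were those of H2-DMb1, a peptide exchange factor, at -0.53 (unadjusted p = 0.146) and of H2-Ab1, a class II chain, at 0.45 (unadjusted p = 0.389), with adjusted p-values of 0.999 in edgeR. H2-DMb1 was between 6.98 and 9.07 CPM in the CTR group and between 2.82 and 8.43 CPM in the cKO group, and the groups overlapped.

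Most of the blood cell markers tested were higher in the cKO group, as were all 10 members and 49.8% of all genes. Of the erythroid and platelet markers 6 of 6 tested were higher, with a median log2 fold change of 0.57, and of the neutrophil and progenitor markers 4 of 4 tested were higher, with a median of 0.40. Of the macrophage and monocyte markers 3 of 4 tested were higher, with a median of 0.07. None of these 14 markers had an unadjusted p under 0.05. The B and plasma cell markers, none of which had a count in every library, summed to between 0.259 and 131 CPM in the CTR group and to at most 2.70 CPM in the cKO group. The erythroid and platelet markers summed to between 58.1 and 158 CPM in the CTR group and between 116 and 228 CPM in the cKO group. Their part in the values of the class I genes was not tested.

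The genes most like the class I members were found by the root mean square difference over the 8 libraries between centred log2 CPM of each gene and the mean centred log2 CPM of the 10 members. Among 9396 candidates with a mean of at least 10 CPM, Mpdu1 was nearest at 0.0541, followed by Apbb2 at 0.0552, Cog4 at 0.0599, 1700021F05Rik at 0.0605, Atg12 at 0.0621, Hfe at 0.0681, Taf7 at 0.0686 and Eif1ax at 0.0694. The median candidate was at 0.242. Hfe is itself a class I-like gene and was at 187, 203, 182 and 203 CPM in the CTR mice and at 166, 212, 219 and 207 CPM in the cKO mice. Tapbp was the member nearest to the members' mean at 0.0407 and Nlrc5 the farthest at 0.315. With 8 libraries, near patterns are found among any large set of genes.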

How the data were processed

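Poly(A)-selected RNA of sorted MSPCs was sequenced by the authors, aligned to mm10 with HISAT2 and counted per gene with HTSeq, as named in the processing notes, and the raw read counts were deposited as a table of 8 libraries. Strand setting and treatment of shared reads are not given in the sources used here. Samples were grouped by the genotype label. Of 52636 identifiers, 52489 matched a symbol. Genes with a count above 0 in all libraries were fitted in edgeR 4.0.16 (quasi-likelihood, TMM, R 4.3.3) with genotype as the only term. The paper's methods instead describe a DESeq2 likelihood ratio model that corrects for a batch effect. They do not name that batch, so the main model here held no batch term and the title range was a term only among the alternatives. DESeq2 1.42.0 and limma 3.58.1 were alternatives, beside other scalings, filters, terms and libraries left out. Ratios were compared by exact permutation tests. Scripts were tested on simulated counts. Named genes were the members, per list those with the 2 largest absolute log2 fold changes or an unadjusted p under 0.05, and the 8 genes nearest in pattern. Some listed genes are not reported here. Members and lists were chosen with earlier results of these data known. Transcript-length alternatives, the title range count, promoter letters and spacing were added after the data had been seen. Counts carry no molecular identifiers. With 1 library per mouse, p-values measure the spread between libraries, 4 per group, in which mouse and library preparation cannot be told apart.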

Additional observations from a re-analysis of the deposited data

Results flagged for a closer look

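A Dixon test compared the gap between the most extreme mouse and its nearest neighbour with the whole range of its group, for each member and ratio in each genotype. It picked out 3 of 28 groups, and chance flags about 1 in 20, or 1.4 of 28. For Tap2 in the cKO group the gap was 0.931 of the range, with mouse 1 low at 218 CPM and the others between 272 and 276 CPM. For Tapbp in the cKO group it was 0.841, again with mouse 1 low at 787 CPM. For the log2 ratio of Psmb9 to Psmb6 in the CTR group it was 0.836, with mouse 3 low at a ratio of 0.217.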

How the results depend on the processing

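No member passed an adjusted p of 0.05 in any of 19 alternatives, and Tap1 alone had an unadjusted p under 0.05 in each, between 0.00307 and 0.0375 with adjusted p-values between 0.289 and 1.00. Over all genes the count at an adjusted p under 0.05 was 0 with limma-voom and with edgeR under each other scaling, term or set of libraries, 1 with edgeR after filterByExpr, 1 with edgeR without a filter, 23 with the DESeq2 Wald test, 22 with its likelihood ratio test and 47 with that test and the title range as a term. Without a filter 1085 genes had an unadjusted p under 0.05. All 10 members stayed above 0 in the 11 alternatives that kept all libraries. With 1 library left out, between 6 and 10 members stayed above 0, and 4 members did so throughout.

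Leaving out cKO mouse 4 gave 6 members above 0 and turned H2-K1 (-0.0232), H2-D1 (-0.0253), B2m (-0.0278) and Psmb10 (-0.0180). The leave-one-out ranges of the log2 fold change were -0.0232 to 0.157 for H2-K1, -0.0253 to 0.0817 for H2-D1, -0.0278 to 0.125 for B2m, -0.0342 to 0.0607 for Psmb9, -0.0180 to 0.120 for Psmb10 and -0.0439 to 0.310 for Nlrc5. H2-D1 also turned without CTR mouse 1 (-0.0183) or cKO mouse 2 (-0.0243). Psmb9 turned without CTR mouse 2 (-0.00084), CTR mouse 4 (-0.0222), cKO mouse 2 (-0.0342) or cKO mouse 3 (-0.0046). Psmb10 turned without CTR mouse 1 (-0.0029), and Nlrc5 without cKO mouse 2 (-0.0439).

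The log2 ratio difference of Psmb8 to Psmb5 was 0.27 within title numbers 26 to 32 and -0.0494 within 67 to 86. That of Psmb9 to Psmb6 was -0.0482 within 67 to 86 and between -0.0822 (without cKO mouse 2) and 0.0703 with 1 library left out, and it was -0.03 without CTR mouse 3. That of Psmb10 to Psmb7 was 0.11 within 67 to 86 and between -0.102 and 0.0897 (without CTR mouse 2) with 1 library left out. The other turns of this last ratio were 0.02 without CTR mouse 4, 0.02 without cKO mouse 1, 0.03 without cKO mouse 2 and 0.0071 without cKO mouse 3. The causes were not tested.

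Same-numbered mice of the 2 genotypes lay in the same title range, and the labels do not say that a number marks a shared litter, batch or day. Deviations of same-numbered mice correlated at 0.131, 0.176, 0.0844 and 0.0572, not all above 0.1, so the numbers were not taken as pairs. Of 8 libraries, 7 correlated best with the same number in the other genotype, which is a hint from the data and not part of the design. With a replicate block 0 genes passed an adjusted p of 0.05, Tap1 was at 0.38 and the median of the members was at 0.05. The block changed the SE of Nlrc5 from 0.249 to 0.142, with an unadjusted p of 0.245. Limits are 4 mice per group, so that the 95% intervals of the members reached between 0.22 and 0.56 on the log2 scale to either side, and RNA levels, which do not measure class I protein at the surface.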
